A study of Mus musculus with 38 samples.

Results

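The 60 CAGE clusters described here are the promoters of histone genes that lie in the *Hist1*, *Hist2*, *Hist3* and *Hist4* gene clusters of the mouse. They were taken from a table of 10,819 clusters by position: the highest point of a cluster had to lie within 500 bp, on the same strand, of an annotated 5′ end (GENCODE vM21, mm10) of a gene whose symbol begins with Hist1h, Hist2h, Hist3h or Hist4h. Each of the 60 was assigned to a different gene, out of 70 annotated genes with such a symbol. By family they were 4 linker histone H1 genes, 17 H2A, 14 H2B, 12 H3 and 13 H4 genes. *Hist1* on chromosome 13 held 48 of them, *Hist2* on chromosome 3 held 9, *Hist3* on chromosome 11 held 2 and *Hist4* on chromosome 6 held 1. The 10 genes without a cluster were *Hist1h1d*, *Hist1h1t*, *Hist1h2aa*, *Hist1h2aj*, *Hist1h2al*, *Hist1h2ba*, *Hist1h2be*, *Hist1h2bp*, *Hist2h2be* and *Hist3h2bb-ps*. Of these, 3 are annotated as pseudogenes (*Hist1h2aj*, *Hist1h2al* and *Hist3h2bb-ps*), and *Hist1h1t*, *Hist1h2aa* and *Hist1h2ba* are known as genes of the testis. The median distance from the highest point to the annotated 5′ end was 19.5 bp, and 57 of the 60 lay within 100 bp. The farthest inside the limit was *Hist1h3f* at 410 bp, and the nearest cluster outside it lay 1772 bp from *Hist1h1d*. For 3 clusters the window also held a 5′ end of another gene. In *Hist2h2aa1* (*Gm20634*) and *Hist2h2bb* (*Gm42743*) that end lay at least as near as that of the histone gene.

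Histones H2A, H2B, H3 and H4 form the core particle around which DNA is wrapped, and H1 binds the DNA that links these particles. Most genes of these clusters are replication-dependent, that is, they are transcribed mainly in S phase, and their mRNAs end in a stem-loop bound by SLBP in place of a poly(A) tail. Some of them are also known to make longer, polyadenylated mRNAs in cells that no longer divide, and variants such as H2A.Z, H2A.X and H3.3 come from genes outside the clusters. nAnT-iCAGE reads the 5′ end of capped RNA after random priming, so it also sees mRNAs without a poly(A) tail, and a level counts RNA 5′ ends at a promoter without regard to the length of the RNA. Muscle fibers do not divide, whereas other cells that live in or pass through the muscle can.

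The libraries came from the soleus, a slow muscle, of young adult male C57BL/6J mice, with 1 library per mouse and 38 in all. The first run had 28 libraries. Of these, 4 came from mice fed at will on day 1 (Pre) and 8 from torpid mice whose food was withdrawn on day 2 (Mid). Another 4 came from mice whose food was returned on day 3 (Post). The study calls these Pre, Mid and Post samples experiment #1. Mice fasted on day 2 at a high ambient temperature (HiT) gave 4. Mice fed on day 2 in the cool (Fed) gave 4. Mice fasted on day 2 and kept from torpor by touch (Dep) also gave 4. Experiment #2, the second run on another instrument, had 2 Pre (numbered 5 and 6), 5 Mid (9 to 13) and 3 Post libraries (5 to 7). The descriptions of the groups follow the study's methods, although GEO's design text states that HiT mice had food, and a condition tag of the Fed samples reads starvation. The comparisons ask which promoters change when torpor begins and ends, and which follow the lowered metabolism, the fast or the cold.

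Tags in clusters numbered 18257657 to 39176649 per library in the first run and 9359994 to 20914855 in the second, and 45209 to 228138 and 26824 to 88665 of them lay in the histone clusters. Every histone cluster had at least 2 tags in every library, and 14 of the 60 had fewer than 10 in at least 1 library. *Myh7*, the myosin of slow fibers, lay between 614 and 1659 TPM (tags scaled to a library total of 1e+06) in the first run and between 305 and 525 TPM in the second. The sum over the 6 slow fiber genes with a cluster, *Myh7* among them, went the other way. It was 5460 to 14644.5 TPM in the first run and 16026 to 25216 TPM in the second. In bulk tissue, fewer cells of a type and less RNA per cell cannot be told apart. Dep 1 in the first run and Mid 11 in the second stood apart from their groups in these promoters. Dep 1 was the highest of the 4 Dep libraries in 55 of the 60 clusters, against 12.5% of all clusters, and Mid 11 the highest of the 5 Mid libraries of its run in 59 of the 60, against 31.5% of all clusters. The results that rest on them are given with and without them.

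The stem-loop that marks a replication-dependent histone mRNA was looked for in the annotated transcripts, since it shows which of the 60 genes carry the usual 3′ end. The letters searched were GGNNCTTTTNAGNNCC on the strand of the transcript, and 40 of the 51 genes with a full transcript model held them, against 0.0814% of the 55271 other genes. The other 9 genes have models that hold coding sequence alone, and none of them had a match. The forms found are printed from the GENCODE transcripts, with the 2 arms of the stem in capitals and the loop in lower case.
H1, H2A, H2B and H3 genes, 23 in all: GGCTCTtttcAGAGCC
H4 genes, 7 in all: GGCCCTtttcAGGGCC
H2B and H3 genes, 5 in all: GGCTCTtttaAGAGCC
Hist1h4i and Hist2h4: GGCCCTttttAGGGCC
Hist1h4b and Hist1h4j: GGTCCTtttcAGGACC
Hist2h2ac: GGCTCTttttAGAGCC
The forms split by family, since the stems of the H4 genes were found in no gene of another family. Of the 40 genes, 19 had more than 100 annotated bases after the stem-loop, that is, a longer transcript beside or in place of the short one.

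Promoter sequences were available for 49 of the 60 clusters (RefSeq, GRCm38.p6), and the 150 bases before the highest point were searched. On the given strand, TATAAA was found in 23 (46.9%) against 3.63% of the 4794 other clusters with a window, and in 19 of them it began between positions -37 and -26 from the highest point (median -29). CCAAT on either strand was found in 40 (81.6%) against 30.1%. The octamer ATTTGCAT on either strand, the site of the factor Oct-1, was found in 8 (16.3%), which were 5 H2B and 3 H2A genes, against 0.709%. GGTCCG on either strand, the core of the H4 element known as site II, was found in 13 (26.5%) against 9.05%, and these were 11 of the 11 H4 genes with a window, 1 H2B and 1 H3 gene. AAACACA on either strand, known as the AC box of H1 genes, was found in 5 (10.2%), among them 3 of the 4 H1 genes, against 1.36%. These matches describe letters and no binding was measured.

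The promoters of 6 genes are printed because they show these elements in genes of the same family, or of 1 shared region, that differed in level or in change. They are the 120 bases before the highest point in GRCm38.p6, 5′ to 3′ on the strand of the gene, with the elements named above in capitals (ATTGG is CCAAT on the other strand). *Hist1h1c* (chr13:23738685-23738804, plus strand) and *Hist1h1b* (chr13:21780628-21780747, minus strand) are H1 genes of high and low level. *Hist1h4c* (chr13:23698461-23698580, minus strand) and *Hist1h4b* (chr13:23756867-23756986, plus strand) are the same pair among H4 genes. *Hist1h2ah* (chr13:22035599-22035718, minus strand) and *Hist1h2bk* (chr13:22035717-22035836, plus strand) share 1 promoter region and point away from each other.
Hist1h1c: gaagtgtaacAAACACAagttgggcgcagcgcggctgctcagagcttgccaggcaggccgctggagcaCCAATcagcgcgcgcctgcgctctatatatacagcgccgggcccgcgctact
Hist1h1b: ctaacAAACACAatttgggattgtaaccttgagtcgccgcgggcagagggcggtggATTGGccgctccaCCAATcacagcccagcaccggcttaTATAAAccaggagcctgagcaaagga
Hist1h4c: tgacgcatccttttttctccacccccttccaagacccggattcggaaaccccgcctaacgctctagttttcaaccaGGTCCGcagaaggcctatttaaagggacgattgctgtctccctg
Hist1h4b: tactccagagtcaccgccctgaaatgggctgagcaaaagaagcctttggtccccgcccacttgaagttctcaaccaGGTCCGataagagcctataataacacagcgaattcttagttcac
Hist1h2ah: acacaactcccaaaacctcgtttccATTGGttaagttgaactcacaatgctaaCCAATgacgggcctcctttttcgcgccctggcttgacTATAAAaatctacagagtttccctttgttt
Hist1h2bk: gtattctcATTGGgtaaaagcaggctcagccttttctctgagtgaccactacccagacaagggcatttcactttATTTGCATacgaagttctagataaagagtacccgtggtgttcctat
Both H1 promoters held an AC box and CCAAT, and both H4 promoters held GGTCCG at the same distance from the highest point. The H1 pair and the H4 pair thus each shared their family's element. In the third pair *Hist1h2ah* held TATAAA and no octamer, *Hist1h2bk* held the octamer and no TATAAA, and both held CCAAT.

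The highest point lay upstream of the annotated 5′ end in 44 clusters and in the annotated 5′ UTR in 16, and the clusters were 56 to 1448 bp wide (median 332, against 281 over all clusters). On the plus strand of chromosome 13 lay *Hist1h3b* (chr13:23752304-23752614), *Hist1h3g* (chr13:23535307-23535673), *Hist1h4h* (chr13:23530970-23531317) and *Hist1h2bc* (chr13:23684072-23684609). *Hist1h2ac* (chr13:23683684-23684037) and *Hist1h1e* (chr13:23621904-23622591) lay on its minus strand. *Hist2h2aa1* (chr3:96245418-96246017, plus strand) and *Hist2h2aa2* (chr3:96239816-96240399, minus strand) mirror each other, as do *Hist2h3c1* (chr3:96246767-96246965, plus strand) and *Hist2h3c2* (chr3:96238655-96239062, minus strand). *Hist3h2a* lay at chr11:58954586-58954733 on the plus strand. Coordinates are those of mm10.

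The 60 promoters fell into a few of high level and many of low level. In Pre of the first run the mean level ran from 0.127 TPM for *Hist1h2bm* (H2B) to 518 TPM for *Hist1h4c* (H4). In 41 clusters it lay under 20 TPM and in 19 at or above it, a limit that was set after the levels had been seen. The members nearest to the limit were *Hist1h2br* at 19.8 TPM and *Hist1h4i* at 20.8 TPM. Summed over the 41 low clusters, the level per library was 190 to 235 TPM in Pre, 123 to 245 TPM in Mid, 145 to 199 TPM in Post and 149 to 328 TPM in Fed. The same sum was 2701, 2307, 816 and 1470 TPM in HiT 1 to 4, and 981, 173, 174 and 142 TPM in Dep 1 to 4. Thus every HiT library, and Dep 1 of the Dep libraries, lay above every other library of the first run. Summed over the 19 high clusters, the level was 4528, 4170, 2453 and 2624 TPM in HiT and 2006 to 3239 TPM in the other groups, so that HiT 3 and HiT 4 lay among the others.

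**Figure D1:**
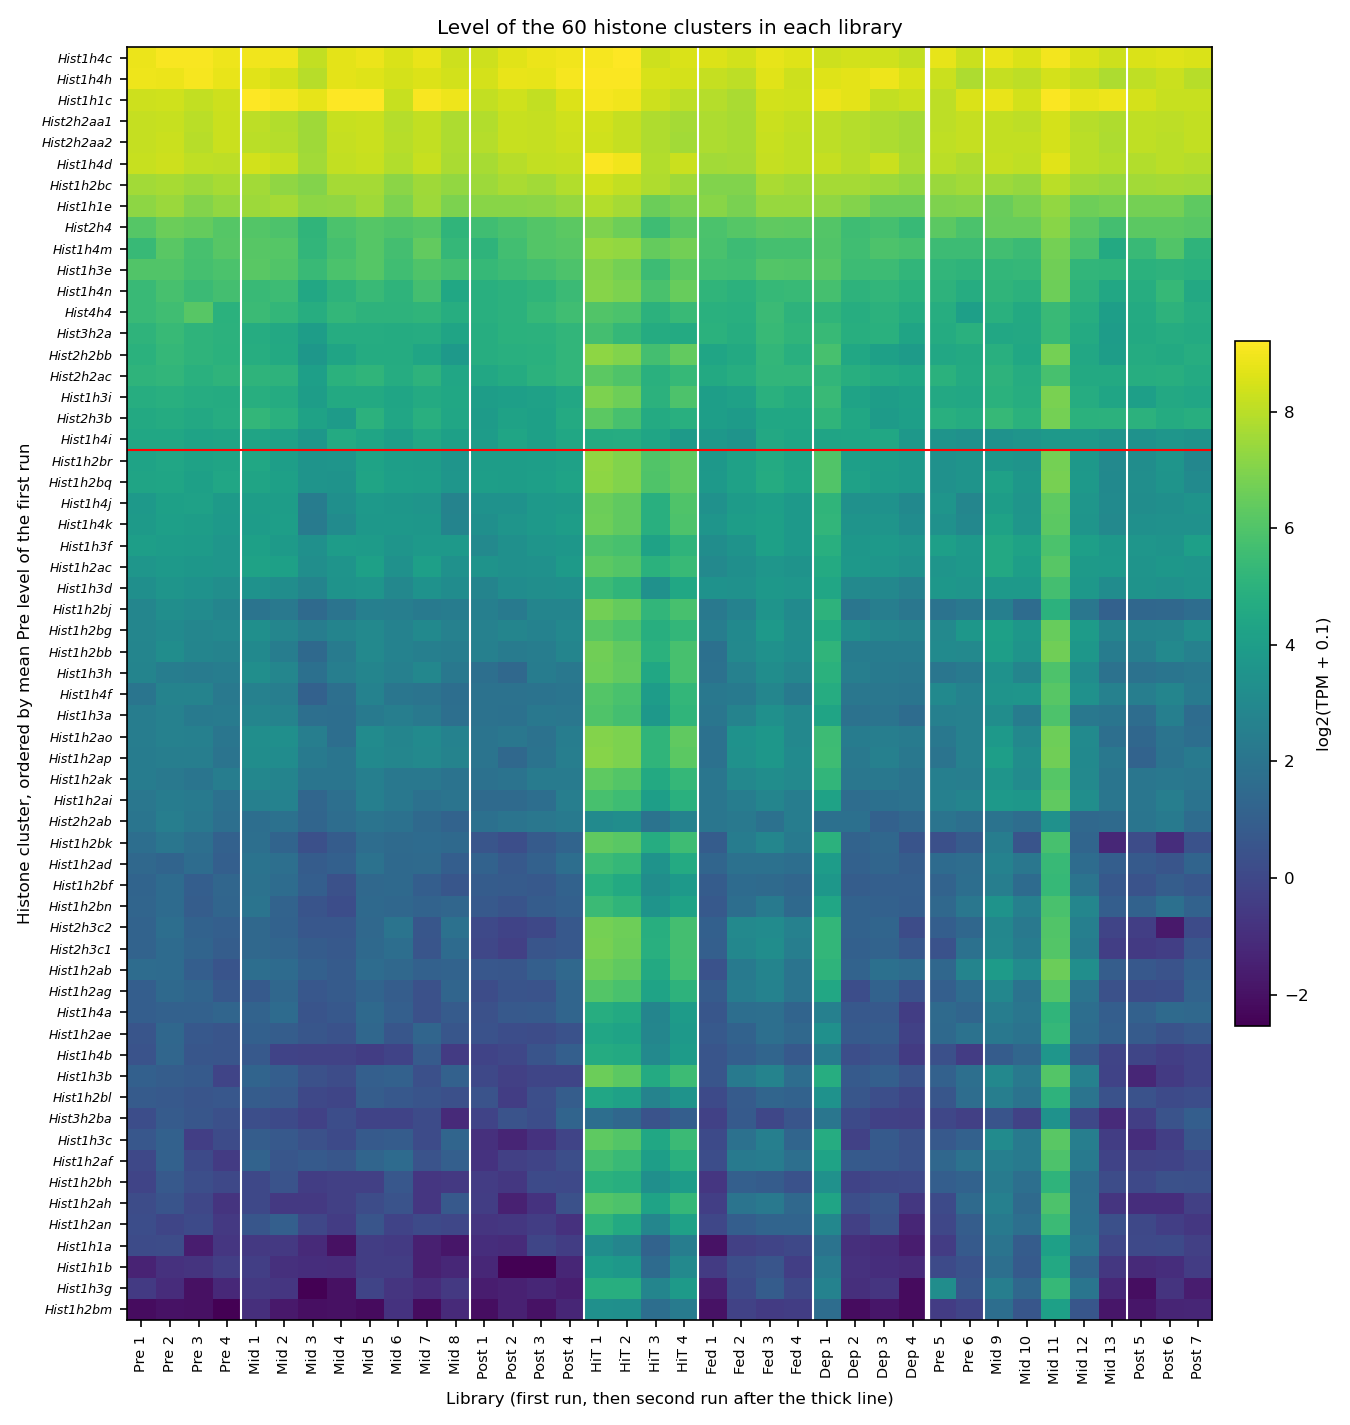
Level of each of the 60 histone clusters (rows, ordered by mean Pre level of the first run) in each library (columns, first run to the left of the thick line) as log2(TPM + 0.1), with the red line at 20 TPM. Below the line the 4 HiT libraries, Dep 1 and Mid 11 stand out as light columns, and above it the columns are more alike.

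**Figure D2:**
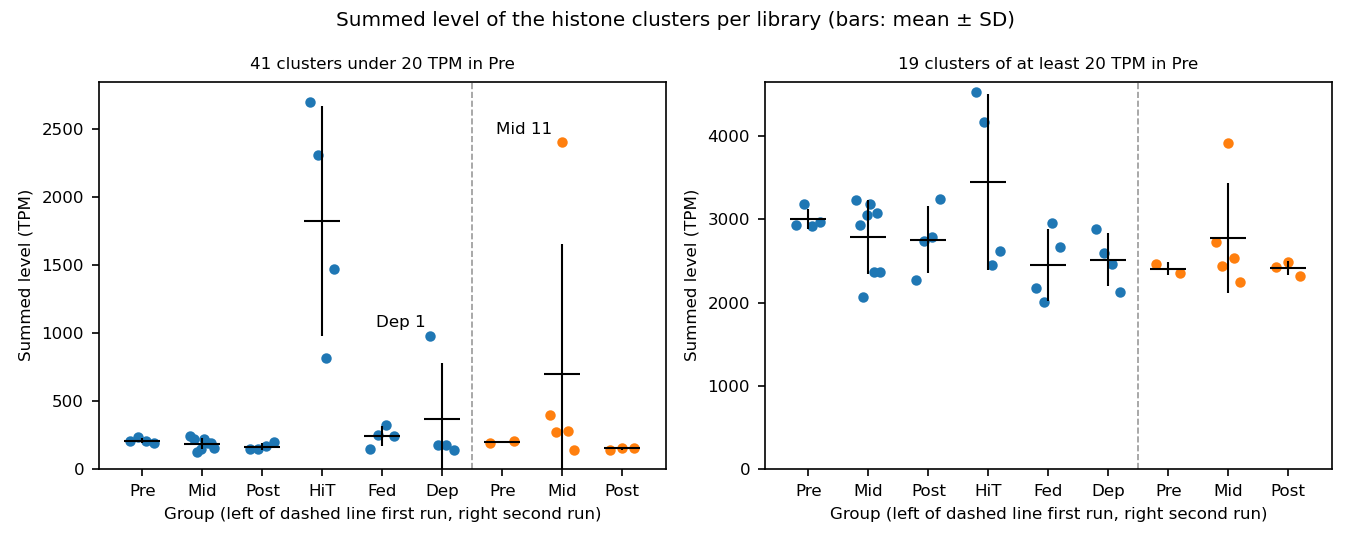
Summed level (TPM) of the 41 clusters under 20 TPM in Pre (left) and of the 19 others (right), 1 point per library, with mean and SD of each group as bars (blue for the first run, orange for the second). On the left the HiT libraries (816 to 2701 TPM), Dep 1 (981 TPM) and Mid 11 (2402 TPM) lie above the rest, and on the right HiT 1, HiT 2 and Mid 11 do.

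From HiT to Mid, which compares fasted mice in the warm with torpid mice in the cool, 55 of the 60 promoters were down-regulated and 0 up-regulated (FDR under 0.05, edgeR quasi-likelihood F test), against 41.0% of all clusters that passed in either direction and 21.8% that were down-regulated. The median log2 fold change was -3.15 over the 60 promoters and 0.02 over all clusters. The 5 that did not pass were *Hist1h1c*, *Hist1h1e*, *Hist1h4c*, *Hist2h2aa1* and *Hist2h2aa2*, which are among the 8 of highest level. In the low class 41 of 41 were down-regulated (median log2 fold change -3.61), and in the high class 14 of 19 (median -0.66). By family these were 2 of 4 H1, 15 of 17 H2A, 14 of 14 H2B, 12 of 12 H3 and 12 of 13 H4 genes. From Fed to HiT, which shares the HiT libraries, 57 of the 60 were up-regulated and 0 down-regulated (43.2% of all clusters in either direction, 23.3% up-regulated), with a median of 2.80. Without regard to the test, every HiT library lay above every Mid library in 43 of the 60 clusters, against 3.65% of all clusters, and above every Fed library in 43, against 3.93%. No histone cluster had every HiT library below every Mid library, against 2.75% of all clusters. HiT lay above the 24 other libraries of the run in 10 clusters (1.43% of all clusters) and, with Dep 1 left out, above the other 23 in 42 (1.77%).

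**Figure D3:**
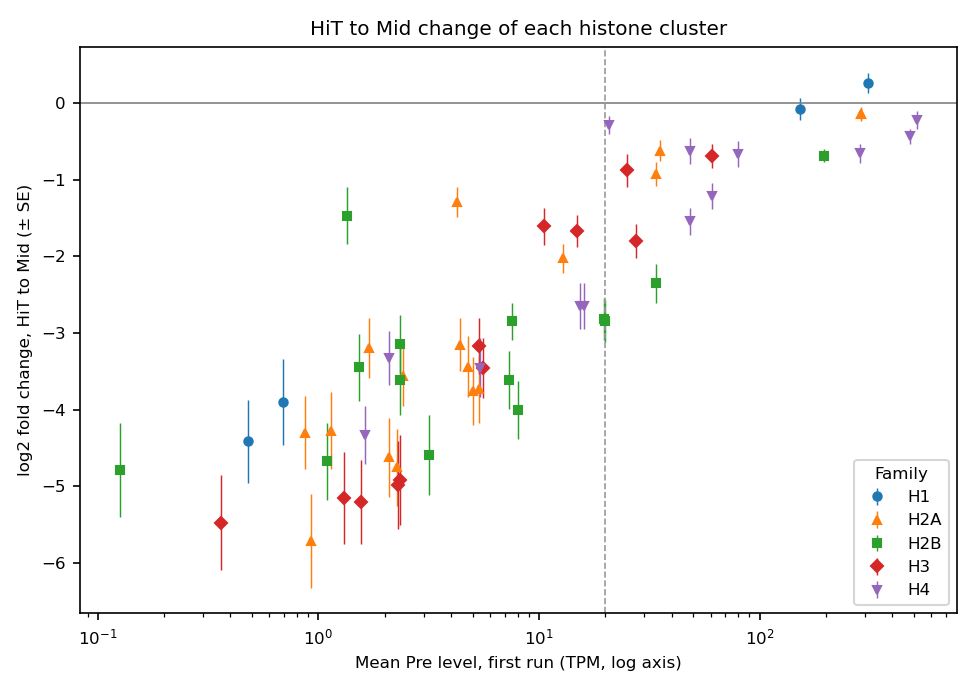
Log2 fold change from HiT to Mid (± SE) of each histone cluster against its mean Pre level of the first run (TPM, log axis), with colour and shape for the family and the dashed line at 20 TPM. The low clusters lie between -5.71 and -1.29, and the points approach 0 as the level rises.

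Of the H1 genes, the 2 of high level and the 2 of low level behaved differently. *Hist1h1c* was at 524, 494, 324 and 264 TPM in HiT, 302 to 595 TPM (median 546) in Mid and 244, 212, 338 and 326 TPM in Fed. The HiT and Mid libraries overlapped, and the log2 fold change from HiT to Mid was 0.26 ± 0.13 (SE; FDR = 0.112). *Hist1h1e* was at 232, 199, 96.6 and 116 TPM in HiT and 117 to 195 TPM (median 167) in Mid, which overlapped as well (-0.08 ± 0.14, FDR = 0.687). *Hist1h1b* was at 15.7, 13.04, 2.86 and 7.83 TPM in HiT and 0.251 to 0.689 TPM (median 0.418) in Mid, with no overlap, and its log2 fold change was -4.41 ± 0.54 (FDR = 4.12e-07). *Hist1h1a*, the remaining H1 gene, fell by 3.90 on the log2 scale.

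Among the 17 H2A genes, the change ran from -5.71 to -0.14 on the log2 scale. *Hist1h2ah*, whose promoter is printed above, was at 66.7, 60.2, 19.5 and 39.1 TPM in HiT and 0.533 to 1.59 TPM (median 0.818) in Mid. The lowest HiT library was thus above the highest Mid library by more than the whole range of the Mid libraries, and the change was -5.71 ± 0.61 (SE; FDR = 5.20e-08), or 52.3-fold lower. In Fed the same gene was at 0.669, 3.83, 4.55 and 2.56 TPM, so Fed 2 to 4 lay above the Mid libraries but far below HiT (Fed to HiT 4.17 ± 0.73, FDR = 7.30e-05).

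*Hist1h2ab* was at 96.5, 81.4, 24.5 and 50.4 TPM in HiT against 1.66 to 3.18 TPM (median 2.38) in Mid, a 26.98-fold lower level. *Hist1h2ac* was at 76.1, 67.6, 30.9 and 42.0 TPM in HiT against 9.49 to 18.6 TPM (median 14.2) in Mid, a 4.08-fold lower level. Neither gene overlapped between the groups. At the other end, *Hist2h2aa1* was at 337, 293, 224 and 196 TPM in HiT and 185 to 310 TPM (median 251) in Mid. Its copy *Hist2h2aa2* was at 333, 295, 224 and 194 TPM and 185 to 309 TPM (median 252). Both pairs overlapped, and both changes missed the threshold (-0.15 ± 0.09 and -0.14 ± 0.09, FDR = 0.183 and 0.204). *Hist3h2a*, whose promoter window also holds a 5′ end of *Trim17*, was at 52.0, 39.1, 25.7 and 24.99 TPM in HiT and 16.1 to 26.9 TPM (median 26.4) in Mid. HiT 3 and HiT 4 lay within the Mid range, and the change was -0.62 ± 0.13 (FDR = 5.77e-04).

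The 14 H2B genes were down-regulated from HiT to Mid by 0.69 to 4.79 on the log2 scale. *Hist1h2bh* was at 31.7, 28.5, 9.89 and 15.6 TPM in HiT and 0.533 to 1.48 TPM (median 0.708) in Mid, without overlap (-4.68 ± 0.51, FDR = 6.18e-08). *Hist1h2bk*, the divergent partner of *Hist1h2ah*, was at 81.2, 72.8, 26.7 and 47.2 TPM in HiT and 1.15 to 3.29 TPM (median 2.70) in Mid, again without overlap (-4.59 ± 0.52). *Hist1h2bc*, the H2B gene of highest level, was at 331, 285, 222 and 187 TPM in HiT and 130 to 198 TPM (median 171) in Mid. HiT 1 to 3 lay above every Mid library and HiT 4 within their range, and the change of -0.69 ± 0.08 (FDR = 4.25e-07) was 1.61-fold.

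The H3 genes, 12 of 12 down-regulated, held the changes nearest in size to that of *Hist1h2ah*. *Hist1h3g* was at 28.3, 27.9, 6.99 and 14.6 TPM in HiT and 0.0719 to 0.815 TPM (median 0.511) in Mid (-5.47 ± 0.62, FDR = 1.24e-07). *Hist1h3b* was at 96.4, 76.7, 24.7 and 46.0 TPM against 1.06 to 2.30 TPM (median 1.89), and the change was -5.20 ± 0.55 (FDR = 4.20e-08). *Hist1h3c* was at 78.3, 66.8, 22.3 and 44.3 TPM against 0.981 to 2.37 TPM (median 1.60), and the change was -5.15 ± 0.59 (FDR = 1.58e-07). In all 3 genes the lowest library was HiT 3 among the HiT libraries, and no Mid library reached it.

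The 2 copies of the *Hist2* H3 gene behaved as these did. *Hist2h3c1* was at 112, 95.2, 28.9 and 51.8 TPM in HiT and 1.38 to 3.20 TPM (median 2.44) in Mid (-4.99 ± 0.57, FDR = 1.46e-07), and *Hist2h3c2* was at 109, 97.3, 28.8 and 52.0 TPM and 1.44 to 3.83 TPM (median 2.34; -4.92 ± 0.59, FDR = 2.75e-07). *Hist1h3f*, the member farthest from its annotated 5′ end, was at 61.0, 55.2, 18.8 and 33.8 TPM in HiT and 10.1 to 17.8 TPM (median 14.1) in Mid. It did not overlap either, although its change was smaller (-1.67 ± 0.21, FDR = 6.06e-07).

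The H4 genes changed least, with a median of -1.22 against -3.44 for H2A, -3.30 for H2B and -3.32 for H3, and 8 of the 13 were of the high class. *Hist1h4c* was at 528, 586, 318 and 370 TPM in HiT and 278 to 507 TPM (median 440) in Mid, which overlapped (-0.23 ± 0.12, FDR = 0.137). *Hist1h4h* was at 567, 565, 358 and 351 TPM and 250 to 419 TPM (median 367; -0.44 ± 0.10, FDR = 9.67e-04). *Hist1h4d* was at 561, 499, 234 and 308 TPM and 191 to 339 TPM (median 291; -0.66 ± 0.12, FDR = 1.52e-04). In the last 2 genes HiT 1 and HiT 2 lay above every Mid library and HiT 3 and HiT 4 within their range.

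*Hist1h4m* was at 167, 158, 85.7 and 104 TPM in HiT and 36.5 to 83.3 TPM (median 61.0) in Mid and did not overlap (-1.22 ± 0.17, FDR = 3.40e-06). *Hist2h4* was at 121, 99.0, 47.5 and 72.8 TPM and 35.1 to 69.5 TPM (median 61.6), where HiT 3 lay within the Mid range (-0.67 ± 0.17, FDR = 0.00272). *Hist1h4b*, of low level, was at 26.05, 24.1, 7.85 and 14.7 TPM in HiT and 0.599 to 1.66 TPM (median 0.770) in Mid, without overlap (-4.33 ± 0.37, FDR = 1.85e-09). Both *Hist1h4b* and *Hist1h4c* held GGTCCG. *Hist1h4b* was named after its values were seen, so this pair cannot show what part the element has, and that part was not tested. Among the clusters with a promoter window, the median change was -1.54 with GGTCCG and -3.44 without it, -3.30 with CCAAT and -1.54 without it, -2.65 with TATAAA and -3.30 without it, -3.23 with the octamer and -2.84 without it, and -4.41 with the AC box and -2.85 without it. GGTCCG was in 8 of 16 high and 5 of 33 low clusters with a window, and in 11 of 11 H4 genes. CCAAT was in 11 of 16 high and 29 of 33 low clusters, and in 2 of 11 H4 genes. These divisions thus also divided the genes by level and family, and the AC box was in 5 clusters.

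Genes of other kinds moved with the histone promoters in HiT. Of 20 genes of S phase and cell division, 7 had a cluster, and 5 were down-regulated from HiT to Mid and 0 up-regulated (*Birc5*, *Ccna2*, *Mcm6*, *Rrm1* and *Pcna*), against 21.8% of all clusters down-regulated and 19.2% up-regulated. *Ccna2*, the cyclin of S phase, was at 10.6, 7.80, 3.34 and 5.84 TPM in HiT and 0.0719 to 0.628 TPM in Mid of the first run (-4.86 ± 0.69, FDR = 3.55e-06). *Birc5*, a gene of mitosis, was at 12.4, 8.80, 4.23 and 5.84 TPM in HiT and 0.0377 to 0.268 TPM in Mid of the first run (-5.68 ± 0.57, FDR = 1.71e-08). *Mcm6*, part of the replicative helicase, was at 28.7, 24.8, 13.99 and 14.3 TPM in HiT and 8.47 to 10.9 TPM in Mid of the first run (-1.15 ± 0.10, FDR = 9.78e-10). None of these 3 genes overlapped between the groups. *Rrm2*, a subunit of ribonucleotide reductase, changed by -0.38 ± 0.25 (FDR = 0.237), and *Mki67*, *Top2a* and *Cdk1* had no cluster.

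Of 8 macrophage markers, 7 had a cluster and 7 were down-regulated from HiT to Mid (log2 fold changes -2.96 to -1.47). *Cd68* was at 23.7, 22.9, 10.8 and 11.6 TPM in HiT and 1.48 to 3.20 TPM in Mid of the first run (-2.96 ± 0.22, FDR = 1.91e-10), and *C1qa* was at 33.9, 25.6, 12.1 and 15.3 TPM and 3.45 to 6.65 TPM (-2.18 ± 0.19). The summed macrophage level was 143 to 430 TPM in HiT, 46.9 to 71.8 TPM in Mid and 55.1 to 99.9 TPM in Fed of the first run. Within HiT the summed level of the 41 low histone clusters, of *Ccna2* with *Birc5*, and of the macrophage markers each had the order HiT 1, HiT 2, HiT 4, HiT 3 from high to low, and HiT 1 was the highest HiT library in 57 of the 60 histone clusters and in 77.2% of all clusters. The part of macrophages or other dividing cells in the histone result was not tested. For the other markers, from HiT to Mid 0 of 4 neutrophil, 0 of 5 red blood cell, 0 of 5 endothelial, 0 of 6 adipocyte and 0 of 2 satellite cell genes passed the test, 1 of 5 tendon genes was down-regulated (*Scx*), and 3 of 6 slow and 2 of 7 fast glycolytic fiber genes were up-regulated, beside 19.2% of all clusters up-regulated and 21.8% down-regulated. From Fed to HiT 7 of 7 macrophage, 5 of 7 S phase and 1 of 2 satellite cell genes were up-regulated (2507 of all 10776 clusters, 23.3%). In the same comparison 5 of 5 red blood cell, 4 of 5 endothelial, 3 of 7 fast glycolytic fiber, 1 of 6 slow fiber and 1 of 6 adipocyte genes were down-regulated (2150 of all 10776 clusters), and no neutrophil or tendon gene passed. The part of these cells in the change from Fed to HiT was not tested. *Pax7* and *Myf5*, which define satellite cells, had no cluster, so that list rested on *Cdh15* and *Chodl*.

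**Figure D4:**
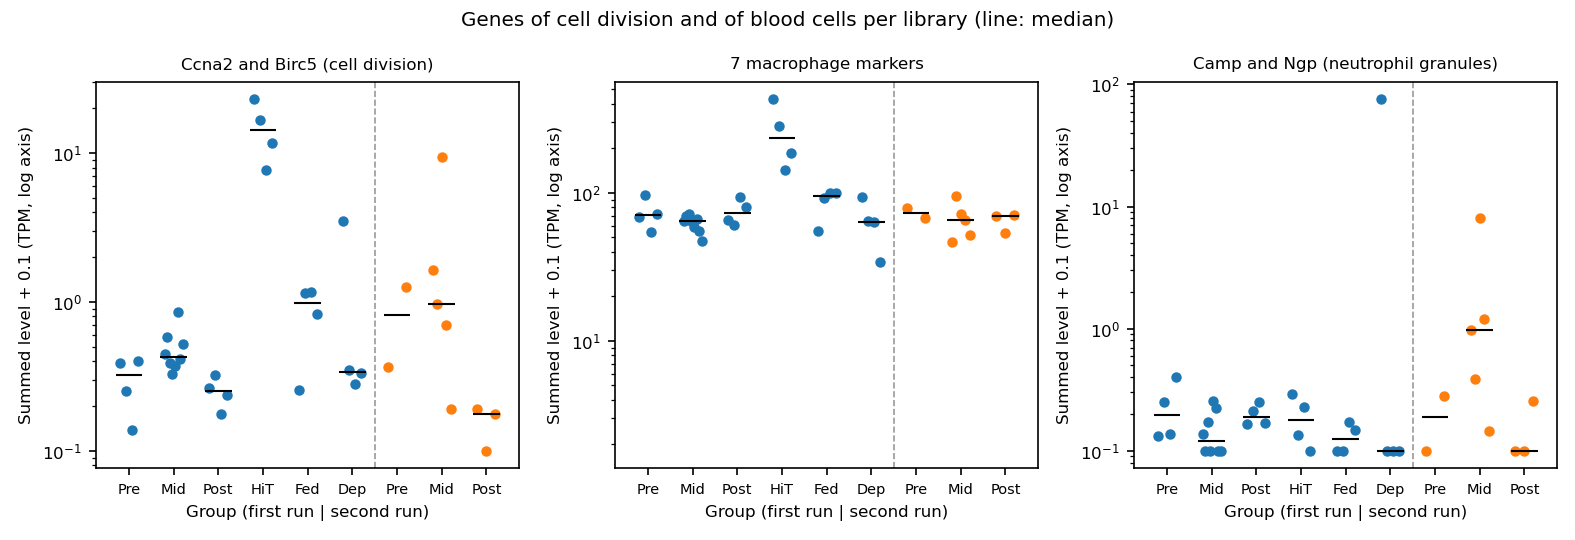
Summed level (TPM + 0.1, log axis) of *Ccna2* and *Birc5* (left), of 7 macrophage markers (middle) and of *Camp* and *Ngp* (right), 1 point per library with the group median as a line, blue for the first run and orange for the second. HiT is high on the left and in the middle, Dep 1 and Mid 11 are high within their groups on the left and right, and in the middle Dep 1 (94.2 TPM) is the highest Dep library and Mid 11 (71.5 TPM) lies among the Mid libraries of its run.

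From Mid to Dep, which asks what torpor deprivation changes in fasted mice, 10 of the 60 promoters were up-regulated and 0 down-regulated, against 2.03% of all clusters in either direction and 1.16% up-regulated. The median log2 fold change was 0.94, and 0.00 over all clusters. These calls rest on Dep 1: with this library left out, 0 of the 60 passed (edgeR, with 5 at an unadjusted p under 0.05) and the median was -0.17. The count was also 0 in a fit of the Mid and Dep libraries alone, 0 with no scaling beyond the total tags, 2 to 6 without one of Pre 1, Mid 2, Mid 3, Mid 4, Mid 5, Mid 8 or Post 1, and 22 without Dep 3. DESeq2 called 17 of the 52 to which it gave an adjusted p, beside 479 of all 10761 clusters. The 10 were *Hist1h2ah*, *Hist1h2ab*, *Hist1h2ag*, *Hist1h2bh*, *Hist1h2bj*, *Hist1h2bk*, *Hist1h3b*, *Hist1h3c*, *Hist2h3c1* and *Hist2h3c2*, all of the low class and none an H1 or H4 gene. In 0 of the 60 did every Dep library lie above every Mid library, against 0.0928% of all clusters.

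*Hist1h2ah* was at 19.7 TPM in Dep 1 and at 1.11, 1.35 and 0.539 TPM in Dep 2 to 4, against 0.533 to 1.59 TPM in Mid of the first run (2.73 ± 0.62, FDR = 0.0267). *Hist1h3c* was at 26.6 TPM in Dep 1 and at 0.742, 1.61 and 1.19 TPM in the others (2.40 ± 0.60, FDR = 0.0378). *Hist1h3b* was at 27.3 TPM in Dep 1 and at 1.65, 1.94 and 1.27 TPM in the others (2.35 ± 0.55, FDR = 0.0287). In these genes Dep 2 to 4 lay within the range of the Mid libraries, except for *Hist1h3c* in Dep 2, which lay below it.

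*Hist2h3c1* was at 37.5, 1.98, 2.19 and 1.46 TPM in Dep 1 to 4 (2.32 ± 0.57, FDR = 0.0352), and *Hist2h3c2* at 37.9, 2.10, 2.34 and 1.04 TPM (2.26 ± 0.59, FDR = 0.0427). *Hist1h2ab* was at 34.3, 2.18, 3.43 and 2.97 TPM and *Hist1h2bh* at 10.6, 0.783, 0.913 and 0.925 TPM in the same order. The genes of high level showed little of this: *Hist1h4c* was at 324, 337, 325 and 285 TPM, *Hist2h2aa1* at 262, 240, 219 and 200 TPM and *Hist1h1c* at 468, 422, 277 and 309 TPM. Dep 1 also differed in blood cell genes. *Camp*, a granule gene of immature neutrophils, was at 53.2 TPM in Dep 1 and had no tag in Dep 2 to 4, *Ngp* was at 22.5 TPM and had no tag in them, and 4 of the 4 neutrophil genes with a cluster were up-regulated from Mid to Dep. *Ccna2* was at 1.56 TPM in Dep 1 and 0.0731 to 0.124 TPM in Dep 2 to 4, and the summed macrophage level was 94.2 TPM in Dep 1, above the 33.9 to 64.2 TPM of Dep 2 to 4 and the 46.9 to 71.8 TPM of Mid in the first run. The part of such cells in the histone levels of Dep 1 was not tested.

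In the second run the same promoters were high in Mid 11. The summed level of the 41 low clusters was 394, 273, 2402, 278 and 137 TPM in Mid 9 to 13, 194 and 205 TPM in Pre and 139, 158 and 157 TPM in Post. From Pre to Mid 0 of the 60 promoters passed the threshold (edgeR; 9.74% of all clusters did, 5.30% up-regulated and 4.44% down-regulated), with 3 at an unadjusted p under 0.05 (24.4% of all clusters). The median log2 fold change was still 1.55, and 0.41 without Mid 11. DESeq2 called 1 of the 58 to which it gave an adjusted p, beside 1381 of all 10744 clusters. From Mid to Post 5 were down-regulated and 0 up-regulated (16.4% of all clusters in either direction, 7.73% up-regulated and 8.65% down-regulated), with 38 at an unadjusted p under 0.05 (30.2% of all clusters). DESeq2 called 26 of the 58 to which it gave an adjusted p, beside 2023 of all 10744 clusters. A fit of the Mid and Post libraries alone called 1, beside 1611 of all 10815 clusters. The median log2 fold change was -1.96, and -0.64 without Mid 11. The count of 5 depended on single libraries: it was 19 without Mid 11 or Mid 13, 12 without Mid 10, 0 without Post 6 or Post 7 and 1 without each of the other 5 libraries of the run.

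The 5 were *Hist1h3g*, *Hist1h3b*, *Hist2h3c2*, *Hist1h2ab* and *Hist1h1c*. *Hist1h3g* was at 5.50, 2.54, 40.9, 3.93 and 0.322 TPM in Mid 9 to 13 and at 0.134, 0.493 and 0.233 TPM in Post 5 to 7 (-5.36 ± 1.65, FDR = 0.0495). *Hist1h3b* was at 7.62, 4.50, 66.7, 6.14 and 0.782 TPM and at 0.313, 0.591 and 0.777 TPM in the same order (-5.03 ± 1.45, FDR = 0.0390). In *Hist1h3g* 4 Mid libraries lay above every Post library and Mid 13 among them, and in *Hist1h3b* the 5 Mid libraries lay above every Post library, Mid 13 by 0.782 against 0.777 TPM.

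*Hist2h3c2* was at 7.33, 4.56, 65.5, 5.74 and 0.828 TPM in Mid and at 0.670, 0.197 and 1.01 TPM in Post (-4.69 ± 1.40, FDR = 0.0442). *Hist1h2ab* was at 14.9, 8.71, 94.5, 9.46 and 1.79 TPM in Mid and at 1.52, 1.28 and 2.02 TPM in Post (-4.02 ± 1.21, FDR = 0.0462). In both genes 4 Mid libraries lay above every Post library and Mid 13 among them. The labels put Mid 9 to 12 and both Pre libraries on lane L003 and Mid 13 and the Post libraries on lane L004. The Mid libraries of lane L003 other than Mid 11 were on average above Mid 13 in 58 of the 60 clusters (median log2 ratio 1.04), against 65.5% of all clusters, and lane and group cannot be told apart for most of this comparison. *Camp* was at 0.115 to 4.64 TPM in Mid 9 to 12 and had no tag in Mid 13. *Camp* and *Ngp* summed to 0 and 0.179 TPM in Pre 5 and 6 and to 0, 0 and 0.155 TPM in Post 5 to 7. These sums are at the floor, and the part of the lane was not tested. In fits chosen after seeing the data, within lane L003, 0 of the 60 passed from Pre to Mid (edgeR; 5.13% of all clusters passed). An unadjusted p under 0.05 was found for 15 of the 60, beside 2462 of all 10810 clusters. Without Mid 11 3 were up-regulated (4.10% of all clusters passed, 2.43% up-regulated). Lane L004 held 1 Mid library.

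Other genes were high in Mid 11 as well. *Camp* was at 4.64 TPM and *Ngp* at 3.28 TPM in Mid 11, against at most 0.403 and 0.705 TPM in the other Mid libraries of the run, *Ccna2* was at 4.14 TPM against at most 0.675 TPM, and *Hbb-bs*, a hemoglobin gene, was at 1522 TPM against at most 908 TPM. The summed level of the 4 neutrophil genes with a cluster was 7.92 TPM in Mid 11, as was that of *Camp* and *Ngp* alone. *S100a8* and *S100a9*, the rest of this list with a cluster, thus had no tag in Mid 11. *Cd68* in Mid 11 (3.14 TPM) lay within the range of the other 4 (2.12 to 5.50 TPM). The part of blood cells in the histone levels of Mid 11 was not tested.

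The same histone clusters were high in HiT, in Dep 1 and in Mid 11. In the low class the median fold was 11.5 for the mean of HiT over the mean of Mid, 7.11 for Dep 1 over the mean of Dep 2 to 4 and 10.3 for Mid 11 over the mean of Mid 9, 10, 12 and 13. In the high class the medians were 1.49, 1.39 and 1.72. Across the 60 clusters the log2 ratio of HiT correlated with that of Dep 1 (Pearson's r = 0.962, Spearman's rho = 0.955) and with that of Mid 11 (r = 0.934, rho = 0.905), and the ratios of Dep 1 and Mid 11 with each other (r = 0.942, rho = 0.934). These are correlations across genes, some of which share tags with a copy, and they share the dependence on level: the log2 Pre level correlated with the 3 ratios at r = -0.865, -0.868 and -0.878. In the 41 low clusters r was 0.912 for HiT with Dep 1 and 0.778 for HiT with Mid 11. For Dep 1 with Mid 11 it was 0.861, and rho was 0.922, 0.731 and 0.821 in the same order. The highest level over all 38 libraries was found in HiT 1 for 33 clusters, in Mid 11 for 23, in HiT 2 for 2, and in Mid 4 (*Hist1h1c*) and Pre 3 (*Hist4h4*) for 1 each.

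**Figure D5:**
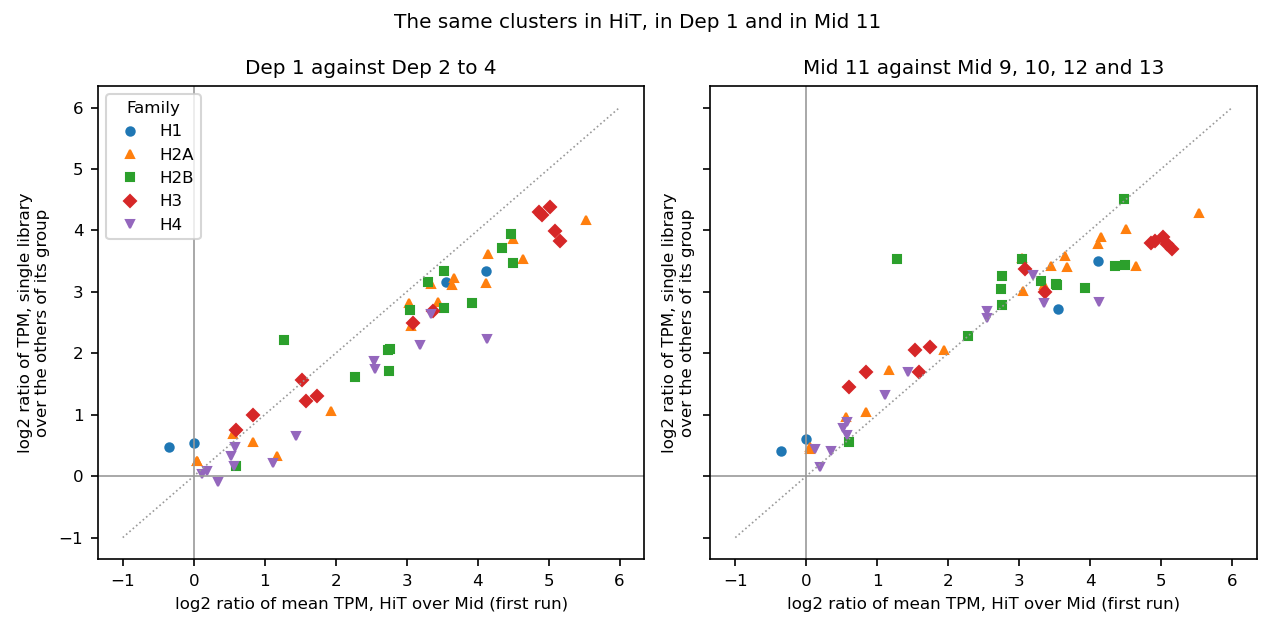
Log2 ratio of TPM of each histone cluster in Dep 1 over the mean of Dep 2 to 4 (left) and in Mid 11 over the mean of Mid 9, 10, 12 and 13 (right) against the log2 ratio of mean TPM of HiT over Mid in the first run, with colour and shape for the family and the dotted line at equal ratios. In both panels the points rise together from near 0 to above 3 (r = 0.962 and 0.934 across 60 clusters).

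When torpor began and ended in the first run, few histone promoters passed the test. From Pre to Mid 1 was up-regulated and 2 were down-regulated (30.2% of all clusters passed), and from Mid to Post 3 were up-regulated and 1 was down-regulated (35.0% of all clusters). In a fit of the Mid and Post libraries alone 2 were up-regulated and 11 down-regulated, beside 1595 and 1506 of all 10765 clusters. With no scaling beyond the total tags 0 were up-regulated and 1 was down-regulated, beside 808 and 822 of all 10776 clusters. Without Dep 1, which enters these comparisons through the shared estimate of the spread, the counts were 5 and 14. The first count was also 5 without Mid 6, and the second was 1 or 2 without Mid 2, Mid 3 or any 1 of the Post libraries. Without regard to the test, every Mid library lay below every Pre library in 4 of the 60 clusters (8.22% of all clusters), and every Post library lay above every Mid library in 1 (5.78%) and below in 3 (2.61%). *Hist1h1c* was at 320, 326, 280 and 318 TPM in Pre, 302 to 595 TPM (median 546) in Mid and 282, 326, 280 and 392 TPM in Post. Of the 8 Mid libraries 7 lay above every Pre and Post library, and Mid 6 lay among them. The log2 fold change was 0.79 ± 0.13 from Pre to Mid (FDR = 7.89e-05) and -0.69 ± 0.13 from Mid to Post (FDR = 2.54e-04). In the second run *Hist1h1c* was at 267 and 376 TPM in Pre, 456, 343, 569, 439 and 477 TPM in Mid and 353, 303 and 298 TPM in Post, where Mid 10 alone lay within the range of the Pre and Post libraries. Its change there was 0.57 ± 0.19 from Pre to Mid (FDR = 0.0895) and -0.60 ± 0.16 from Mid to Post (FDR = 0.0313, or 0.0560 with no scaling).

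The other promoters that passed moved the opposite way. *Hist1h4h* was at 479, 470, 525 and 458 TPM in Pre, 250 to 419 TPM (median 367) in Mid and 356, 451, 438 and 530 TPM in Post, so that no Mid library reached a Pre library (-0.34 ± 0.10, FDR = 0.0109, then 0.26 ± 0.10, FDR = 0.0402). *Hist3h2a* was at 34.0, 42.0, 34.3 and 31.9 TPM in Pre, 16.1 to 26.9 TPM in Mid and 27.5, 31.5, 31.8 and 36.4 TPM in Post, and neither Pre nor Post overlapped Mid (-0.47 ± 0.13, FDR = 0.00900, then 0.38 ± 0.13, FDR = 0.0324). *Hist1h2bc* was at 178, 210, 189 and 236 TPM in Post and 130 to 198 TPM in Mid of the first run, with overlap (0.25 ± 0.09, FDR = 0.0277). In the second run none of these 3 passed, and *Hist3h2a* was at 25.6 and 29.96 TPM in Pre and 15.5 to 41.7 TPM in Mid.

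The difference between the runs was tested in 1 model over the 38 libraries, and 0 of the 60 promoters passed for either change (edgeR; 0 of all clusters passed either, and 24 and 37 of the 60 had an unadjusted p under 0.05, against 5.09% and 6.30% of all clusters). The median of that difference, the first run minus the second, was -1.74 for the Pre to Mid and 1.83 for the Mid to Post change. These medians and the unadjusted counts include Mid 11. Without it the median change of the second run was 0.41 from Pre to Mid and -0.64 from Mid to Post, against 1.55 and -1.96 with it.

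From Fed to Mid, which compares fed and torpid mice on the same day, 3 promoters were up-regulated and 1 was down-regulated (35.2% of all clusters passed), with 9 at an unadjusted p under 0.05 (44.6%). In a fit of the Fed and Mid libraries alone 2 were up-regulated and 6 down-regulated, beside 1207 and 1631 of all 10762 clusters. With no scaling 1 was up-regulated and 1 down-regulated, beside 509 and 1672 of all 10776 clusters. The comparison shares the Mid libraries with the others, and its count was 14 without Dep 1, 7 without Mid 3, and 2 without Mid 5, Fed 1, Fed 2 or Fed 4. *Hist1h1c* was up-regulated by 0.98 ± 0.14 (FDR = 4.87e-06), with all 4 Fed libraries (212 to 338 TPM) under 7 of the 8 Mid libraries. *Hist1h4h* was at 290, 261, 415 and 320 TPM in Fed, which overlapped Mid (0.30 ± 0.10, FDR = 0.0243), and *Hist1h2ac* at 7.82, 9.90, 12.3 and 11.2 TPM, which overlapped it too (0.55 ± 0.21, FDR = 0.0408). *Hist3h2a* was at 31.3, 27.1, 41.3 and 35.2 TPM in Fed, above every Mid library (-0.36 ± 0.13, FDR = 0.0405). *Hist3h2a* was thus down-regulated from Pre, HiT and Fed to Mid and up-regulated from Mid to Post, the 1 histone promoter with these 4 calls, although with no scaling beyond the total tags its calls from Mid to Post (FDR = 0.148) and from Fed to Mid (FDR = 0.0531) were lost. With no scaling *Hist1h4h* lost its calls from Pre, HiT and Fed to Mid and from Mid to Post (FDR = 0.0671 to 0.517), *Hist1h2bc* lost its call from Mid to Post (FDR = 0.269) and *Hist1h2ac* its call from Fed to Mid (FDR = 0.212). With TMM, *Hist1h4h* was up-regulated from Fed but down-regulated from HiT and Pre to Mid, and *Hist1h1c* was up-regulated from Fed and Pre with no call from HiT. Among all 6 groups of the first run at once, 57 of the 60 differed (70.6% of all clusters), and *Hist1h1e*, *Hist2h2aa1* and *Hist2h2aa2* did not pass.

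Histones of the clusters are often arranged in pairs that share a promoter region. There were 9 pairs of an H2A and an H2B gene, with highest points 208 to 239 bp apart (median 232) and pointing away from each other. Within a pair the change from HiT to Mid differed by a median of 0.62 on the log2 scale and by 1.34 at most. The most unequal pair was *Hist1h2ac* (-2.03) and *Hist1h2bc* (-0.69), whose mean levels in the first run were 18.9 and 192 TPM. *Hist1h2ah* and *Hist1h2bk*, printed above, changed by -5.71 and -4.59 at mean levels of 8.33 and 11.6 TPM.

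Several members are copies of each other, and their tags may be divided by the mapping. The count of *Hist2h2aa1* over that of *Hist2h2aa2* was 0.948 to 1.02 in the 38 libraries (median 1.00). The median was 0.992 (0.667 to 3.5) for *Hist2h3c1* over *Hist2h3c2*, 1.01 (0.651 to 1.63) for *Hist1h2ao* over *Hist1h2ap*, 1.02 (0.905 to 1.43) for *Hist1h2bq* over *Hist1h2br* and 0.974 (0.848 to 1.16) for *Hist1h4j* over *Hist1h4k*. *Hist1h4m* over *Hist1h4n* was less equal, at a median of 1.49 (0.979 to 1.90). How tags that map to both copies were assigned is not given in the sources used here, so the members of a pair are not taken as independent measurements. The first 50 bases of the annotated transcript were found in another gene for 10 of the 60 members.

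The genes with a stem-loop were also divided by the length of the annotated transcript after it. The 19 genes with more than 100 bases after it had a median change from HiT to Mid of -1.47 (-4.99 to 0.26), and the 21 with up to 100 bases a median of -3.61 (-5.20 to -0.14). Of the 19, 9 were of the high class, and of the 21, 6 were, so the division by length also divided the genes by level.

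Histone genes outside the clusters were compared in the same way. Of 13 such genes listed, 9 had a CAGE cluster, and from HiT to Mid 3 were down-regulated and 0 up-regulated, beside 21.8% of all clusters down-regulated and 19.2% up-regulated. *H2afx*, the histone that marks DNA breaks, was at 65.0, 49.5, 21.7 and 32.1 TPM in HiT and 7.62 to 11.6 TPM in Mid of the first run (-2.18 ± 0.24, FDR = 1.04e-07), at 31.8 TPM in Dep 1 and at 45.5 TPM in Mid 11. *Cenpa*, the histone of centromeres, was at 14.1, 13.1, 7.09 and 9.92 TPM in HiT and 3.33 to 5.59 TPM in Mid of the first run (-1.44 ± 0.14, FDR = 1.66e-08). In both genes every HiT library lay above every Mid library of the first run. *H2afz* fell by 0.87 (FDR = 1.91e-08), and *H3f3b*, a gene of the H3.3 variant, changed by -0.17 ± 0.07 (FDR = 0.0563).

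Of 20 genes of histone transcription and mRNA processing 11 had a cluster. From HiT to Mid 4 were down-regulated and 0 up-regulated, beside 21.8% of all clusters down-regulated and 19.2% up-regulated (41.0% in either direction). *Slbp*, which binds the stem-loop printed above, was at 24.8, 22.8, 17.3 and 14.4 TPM in HiT and 12.97 to 18.1 TPM in Mid of the first run, with overlap (-0.43 ± 0.08, FDR = 8.49e-05). *Eri1*, a nuclease of the histone mRNA end, changed by -0.64 ± 0.12 (FDR = 1.99e-04), while *Sympk* and *Srrt* did not pass (0.19 and -0.04). Of 20 histone chaperones 14 had a cluster, and 3 were up-regulated and 3 down-regulated, near the 19.2% and 21.8% of all clusters. *Hjurp*, the chaperone of *Cenpa*, changed by -0.63 ± 0.11 (FDR = 8.87e-05), *Ubn2* by 0.46 ± 0.17 (FDR = 0.0382), and *Daxx* and *Nap1l1* did not pass (0.15 and 0.10).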

How the data were processed

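nAnT-iCAGE libraries were made by the authors from total RNA, and their tags were mapped to mm10 with bwa and hisat2 (versions not given in the sources used here) and clustered with PromoterPipeline. The deposited table held, for each cluster and library, a tag count, which the header calls rescued, and the authors' TPM, whose total also holds tags outside the clusters. How tags that map to several copies of a histone gene were rescued was not stated, so levels of copies are uncertain. Levels are printed as the authors' TPM. Counts were tested with edgeR 4.0.16 in R 4.3.3 (quasi-likelihood F test, TMM, clusters with any tag, Benjamini-Hochberg adjustment over all clusters, FDR under 0.05). The 28 libraries of the first run were fitted together, the 10 of the second alone, and the 38 together for the difference between runs. DESeq2 1.42.0 was an alternative. On simulated counts the edgeR script was tested first. A change "from X to Y" is positive when Y is higher. The members and lists were chosen with earlier results of these data known. Values by library were given for the 10 clusters of highest level, up to 5 called per comparison and direction, those with 1 library over 50% of the signal, and the pair at the distance limit; of each other list, up to 4 genes with the smallest p among the 6 groups. *Hist1h1a*, *Hist1h1b*, *Hist1h2bk*, *Hist1h4b*, *Pcna* and *Rrm1* were named outside this rule, after their values were seen. Each library is 1 mouse, and no 2 libraries of a group had counts that agreed within sampling noise.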

Additional observations from a re-analysis of the deposited data

Results flagged for a closer look

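Dep 1 stood apart, on the high side, from the other 3 Dep libraries in 39 of the 60 histone clusters by the gap to its nearest neighbour relative to the range, and Mid 11 from the other 4 Mid libraries of the second run in 47. Chance gives such a gap in about 1 in 20 groups, and over all clusters it was seen on the high side of Dep 1 in 0.7% and of Mid 11 in 2.5%. The summed level of the 41 low clusters stood apart in the same way in Dep 1 (981 TPM) and in Mid 11 (2402 TPM), as did the sum over the 60 clusters in Mid 11 (6323 TPM). Pre 2 stood apart within Pre of the first run in the sum over the 60 clusters (3418 TPM) and over the 19 high clusters (3183 TPM), with 3 single clusters.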

How the results depend on the processing

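The counts from HiT to Mid (46 to 56 over the alternatives, 54 to 55 with single libraries left out), from Fed to HiT (49 to 57, and 53 to 59) and among the 6 groups (51 to 57, and 55 to 60) stayed within 1.5 times the values reported. In a fit of the compared groups alone, the count was 5 from Pre to Mid, 13 from Mid to Post, 8 from Fed to Mid and 0 from Mid to Dep in the first run, and 1 from Mid to Post in the second. Over all clusters these fits called 2909 of 10765, 3101 of 10765, 2838 of 10762, 2 of 10766 and 1611 of 10815 in the same order. With no scaling beyond the total tags the histone count was 1 from Mid to Post, 2 from Fed to Mid and 0 from Mid to Dep. The median of all clusters then shifted to 0.11 from HiT to Mid, -0.12 from Fed to Mid and -0.21 from Fed to HiT. DESeq2 gave 17 from Mid to Dep, where 52 of the 60 had an adjusted p. In the second run it gave 1 from Pre to Mid and 26 from Mid to Post, where 58 of the 60 had one. Within lane L003 without Mid 11 the count from Pre to Mid was 3, and within lane L004 from Mid to Post 0, in a fit where the 1 Mid library is assumed to vary like the Post libraries. With single libraries left out, it was 2 to 5 from Pre to Mid, 1 to 14 from Mid to Post, 2 to 14 from Fed to Mid and 0 to 22 from Mid to Dep in the first run, and 0 to 1 and 0 to 19 in the second, while the difference between runs stayed at 0. The medians ran from -0.17 to 1.17 for Mid to Dep, 0.41 to 1.79 for Pre to Mid and -2.20 to -0.64 for Mid to Post of the second run. The change from Mid to Dep ran from -0.0043 (without Dep 1) to 2.69 for *Hist1h3b*, -0.36 to 2.62 for *Hist2h3c2*, -0.31 to 2.77 for *Hist1h3c* and -0.24 to 2.67 for *Hist2h3c1*, the lowest being without Dep 1 in each. Of 57 calls of named clusters, 20 were lost with no scaling, 14 in fits of the compared groups and 0 with other size factors or a filter on low counts. DESeq2 gave no adjusted p for 6 of the 57 and kept the other 51. Other causes of these changes were not tested.

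With the replicate number as a block the count was 4 from Pre to Mid, 6 from Mid to Post, 56 from HiT to Mid, 2 from Fed to Mid, 0 from Mid to Dep and 56 from Fed to HiT. Of 24 correlations between the deviations of same-numbered libraries, 8 were over 0.1 (-0.338 to 0.432). These values cannot decide whether such libraries share more than a number. In the second run, Mid shares no number with Pre or Post, and no block was fitted. The fewest tags limit the lowest clusters: *Hist1h3g*, *Hist1h1b*, *Hist1h2bm* and *Hist2h3c2* had 2 tags in a library.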
